A study of Mus musculus with 18 samples.

Results

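The lymphotoxin and TNF family genes described here are 10 genes of the 20298 listed in the expression table. They are the ligands Lta, Ltb, Tnf, Tnfsf12, Tnfsf13, Tnfsf13b and Tnfsf14 and the receptors Tnfrsf1a, Tnfrsf1b and Ltbr. The genes were chosen by name, and each name matched 1 listed gene. Lta was also chosen for its low level in DKI cells on days 3 and 6, so that its difference between WT and DKI is given as a description with no test. The other 9 genes were chosen as relatives of Lta and were tested in a fit of all genes.

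The study sequenced RNA of 18 libraries, 3 in each of 6 groups. The cells were Ly6C+ CCR2+ monocytes, which the study took from bone marrow and the sample labels place in liver. They were untreated on day 0, or were cultured for 3 or 6 days with 20 ng/mL GM-CSF, a cytokine that signals through STAT5, to give monocyte-derived cells (MDCs). WT cells came from wild-type mice, and DKI cells from mice with knock-in mutations in the N-domains of both Stat5a and Stat5b, which let STAT5 form dimers but not tetramers. All cells of the DKI animals carry the mutations, and cells of both genotypes received the same GM-CSF. The monocytes were enriched with a kit that removes other cells (negative selection), which can leave some of them, and in such bulk samples fewer cells of a type and less RNA per cell cannot be told apart.

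Lymphotoxin alpha, the product of Lta, is secreted as a homotrimer that binds the TNF receptors, or joins lymphotoxin beta, a membrane protein made from Ltb, in a surface complex that binds the lymphotoxin beta receptor (Ltbr). TNF is made as a membrane protein, is released by the protease ADAM17, and binds TNFR1 (Tnfrsf1a), which can signal inflammation or cell death, and TNFR2 (Tnfrsf1b), which lacks a death domain. LIGHT, the product of Tnfsf14, shares Ltbr with the lymphotoxin complex and also binds HVEM (Tnfrsf14). Lymphotoxins are best known from lymphocytes and from the formation of lymphoid organs, and TNF from activated monocytes and macrophages. TWEAK (Tnfsf12), APRIL (Tnfsf13) and BAFF (Tnfsf13b) are ligands made by many myeloid cells, the last pair as survival factors for B cells and plasma cells.

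In RefSeq (GRCm38.p6, the mm10 build), Ltb (chr17:35194507-35196305), Tnf (chr17:35199367-35202007) and Lta (chr17:35203165-35205578) lie side by side in 11072 bases, with 3061 bases between Ltb and Tnf and 1157 between Tnf and Lta. Ltb is read from the plus strand, and Tnf and Lta are read from the minus strand. Tnfsf14 (chr17:57189474-57194181) is farther along the same chromosome. Ltbr (chr6:125306571-125313885) and Tnfrsf1a (chr6:125349723-125362483) share chromosome 6 with only Scnn1a between them. Tnfsf13 (chr11:69682577-69685554) and Tnfsf12 (chr11:69686240-69696098) are adjacent, Tnfrsf1b (chr4:145212368-145246870) is on chromosome 4 and Tnfsf13b (chr8:10006229-10036000) is on chromosome 8.

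The 250 bases before an annotated start of 9 of the 10 genes (all but Tnfsf12) were read from RefSeq promoter windows and searched on both strands. The motifs were the gamma-activated site TTCNNNGAA, a palindrome bound by STAT dimers, its form TTCNNNNGAA with a longer spacer, the AP-1 site TGACTCA or TGAGTCA, and the NF-kappaB consensus. The Lta window held 3 matches, shown because Lta differed most, with the match in capitals and up to 10 bases on either side. They lie on the minus strand at chr17:35205485-35205513, chr17:35205423-35205452 and chr17:35205352-35205377. These places are also within the span of a longer RefSeq transcript of Lta.
Lta, TTCNNNGAA match at 152 to 144 bases before the start: accatcactcTTCAGGGAAccaggcttcc
Lta, TTCNNNNGAA match at 91 to 82 bases before the start: tgctcggccgTTCACTGGAActcctgggcc
Lta, TTCNNNGAA match at 16 to 8 bases before the start: ccgactccctTTCCCAGAAcgcagta

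The windows of Ltb and Tnfsf14 are shown because these genes moved in opposite directions in DKI cells. In Ltb (chr17:35194257-35194438, plus strand, the 182 bases before the first GENCODE exon) the capitals mark 1 TTCNNNGAA match and 1 NF-kappaB consensus match. In Tnfsf14 (chr17:57194182-57194431, minus strand) they mark 1 AP-1 match.
Ltb: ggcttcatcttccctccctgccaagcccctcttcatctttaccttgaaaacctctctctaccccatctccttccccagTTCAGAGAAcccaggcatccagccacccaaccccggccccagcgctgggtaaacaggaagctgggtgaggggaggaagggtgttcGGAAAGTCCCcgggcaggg
Tnfsf14: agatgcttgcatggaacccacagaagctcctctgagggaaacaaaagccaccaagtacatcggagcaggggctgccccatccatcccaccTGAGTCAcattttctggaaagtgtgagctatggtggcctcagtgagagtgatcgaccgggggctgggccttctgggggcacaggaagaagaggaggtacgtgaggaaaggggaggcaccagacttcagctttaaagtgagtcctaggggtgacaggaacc

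Tnfrsf1a and Tnfrsf1b each held 1 TTCNNNGAA match, at 244 to 236 and 181 to 173 bases before their starts. Ltbr held 1 match with the longer spacer, Tnfsf13 1 AP-1 match, and the windows of Tnfsf13b both of these, whereas the Tnf window held no match. The windows of Tnfsf13b (chr8:10006217-10006466 and chr8:10006383-10006632) lie mostly within its span given above. Its matches are therefore not before the first base of that span. No matches overlapped one another within Lta or Ltb. Among the 32851 RefSeq windows of the same length, 7.02% held TTCNNNGAA, 0.317% held 2 or more of them as Lta did, 5.85% held the form with the longer spacer, 7.25% the NF-kappaB consensus and 4.46% the AP-1 site. A match describes the letters of the window and does not show that a factor binds there.

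Values are RPKM, reads scaled to the length of the gene and the size of the library, which allows levels of different genes to be compared. RPKM holds no read totals, but its smallest steps gave depths of 29500000 to 43200000 reads per library, with a median of 36400000 reads. With an annotated transcript length of 1383 bases, the Lta values then came out as whole reads (within 0.001 of a read) in 18 of 18 libraries. Differences between groups are on the log2(RPKM + 1) scale from limma, over genes with a mean above 2 RPKM in at least 1 of the groups compared. This scale understates the change of low genes. A gene was called at an adjusted p under 0.05 over all genes fitted and a fold change above 1.5. A gene that passed the filter through only 1 group could hardly be called in the other direction. Among the DKI against WT calls of the chosen analysis, this holds for Tnfsf14 on days 3 and 6, Traf4 on day 3 and Cd70 on day 6.

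The identity of the cells was checked with marker lists. On day 0 the 6 monocyte markers summed to 2581 to 3567 RPKM in WT and 2831 to 3375 RPKM in DKI, and of the 6 hepatocyte markers Alb, Serpina1a and Ttr were at 0 RPKM in all 18 libraries. Among lymphocyte markers, Cd3e (T cells) did not pass 0.257 RPKM in any library and Ncr1 (NK cells) did not pass 0.296 RPKM, but others of the same lists were higher: Nkg7 was at 6.30 to 13.6 RPKM and the B cell marker Cd79b at 2.34 to 13.3 RPKM on day 0, Klrk1 reached 18.8 RPKM and Cd3g 8.79 RPKM on day 6. The 8 neutrophil markers, granule protein genes that marrow precursors also express, summed to 1291 to 1722 RPKM on day 0, and on day 3 to 111 to 762 RPKM in WT and 802 to 1426 RPKM in DKI. Of these 8, Mmp8 (83.7 to 283 RPKM in WT and 372 to 1113 RPKM in DKI), Prtn3 (0.700 to 13.9 and 15.5 to 27.2 RPKM) and Retnlg (0.153 to 2.19 and 8.53 to 12.7 RPKM) were higher in every DKI library than in any WT library on day 3. The other 5 overlapped between genotypes, among them Mpo at 0.156, 6.57 and 0.0489 RPKM in WT against 19.6, 25.0 and 0.0252 RPKM in DKI. The 8 markers of eosinophils, basophils and mast cells summed to 300 to 510 RPKM in WT and 175 to 363 RPKM in DKI on day 0. The DKI sum was the lower in each same-numbered pair. On day 3 the sums were 41.0 to 77.6 RPKM in WT and 40.1 to 59.3 RPKM in DKI.

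On day 0, before GM-CSF, WT and DKI monocytes had the same order of levels. The receptors Tnfrsf1b (271 ± 131 RPKM in WT against 270 ± 137 RPKM in DKI, SD, n = 3), Tnfrsf1a (218 ± 51.5 and 221 ± 45.8 RPKM) and the ligand Tnf (179 ± 79.0 and 178 ± 92.0 RPKM) were highest. Ltbr followed at 55.8 ± 5.34 RPKM in WT, then Tnfsf12 at 10.5 ± 5.32, Tnfsf14 at 6.99 ± 2.18, Tnfsf13 at 2.91 ± 0.653, Tnfsf13b at 1.97 ± 0.636, Ltb at 1.27 ± 0.260 and Lta at 0.116 ± 0.0854 RPKM. The ranges of Tnfrsf1b, Tnfrsf1a and Tnf overlapped each other, as did those of Tnfsf12 and Tnfsf14, of Tnfsf13 and Tnfsf13b, and of Tnfsf13b and Ltb.

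DKI and WT monocytes were compared on day 0 to see whether the genotype alone changed these genes. Of the 9 genes other than Lta, 7 passed the filter and 0 were called by limma, where 0% of the 9179 genes fitted were called in either direction and 44 genes had an unadjusted p under 0.05. Ltb and Tnfsf13b were below the filter. Lta was at 11, 8 and 1 reads in the 3 WT libraries and 14, 1 and 0 reads in the 3 DKI libraries, where 3 reads correspond to 0.0503 to 0.0734 RPKM, so a difference was not detectable at this depth.

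**Figure D1:**
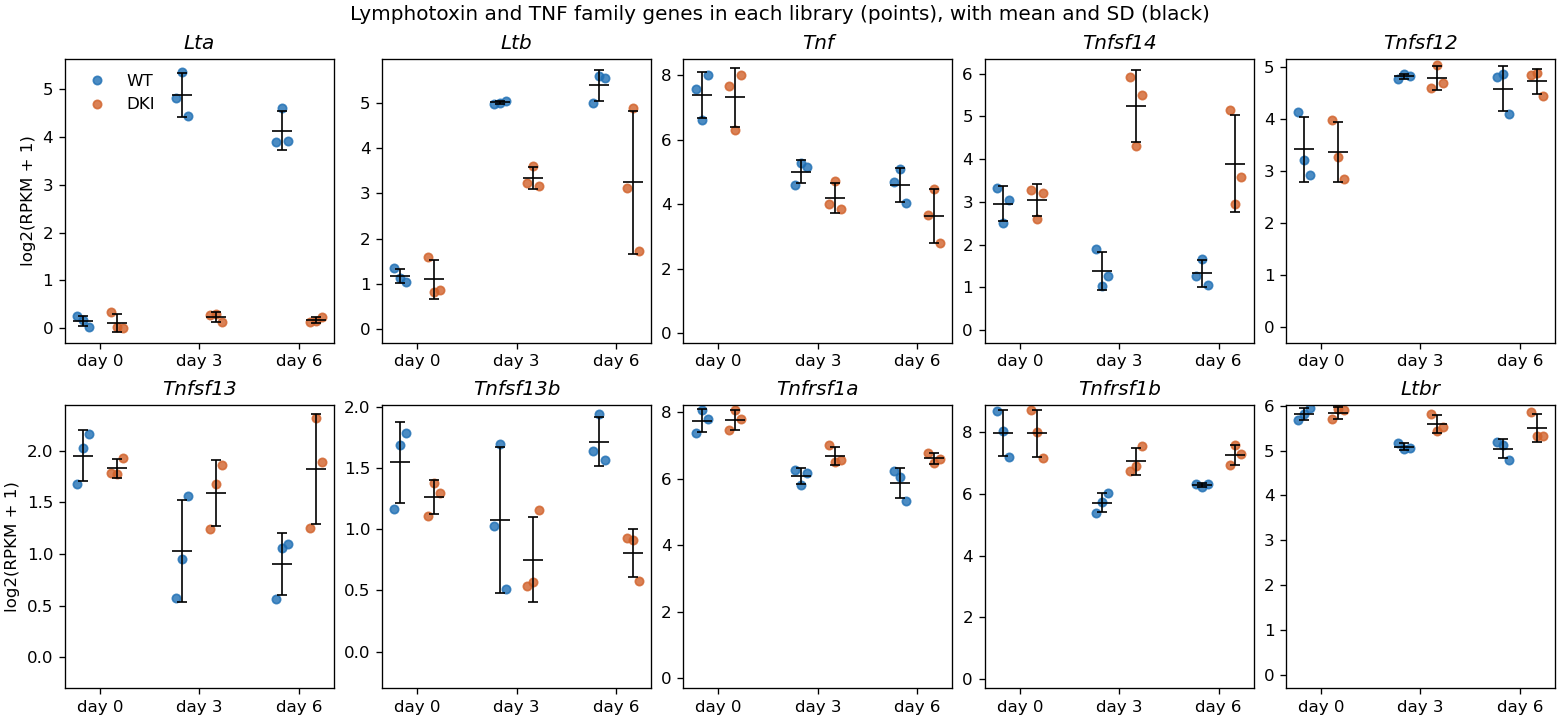
Levels of the 10 genes as log2(RPKM + 1) on the y axis, by day on the x axis, with 1 point per library (WT blue, DKI orange) and black bars for the mean ± SD of 3 libraries. Lta is at 20.6 to 39.7 RPKM in WT on day 3 and at most 0.239 RPKM in DKI, and Tnfsf14 shows the opposite order.

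Lta was among the ligands of WT MDCs and was nearly absent from DKI MDCs. On day 3 the WT libraries held 27.0, 39.7 and 20.6 RPKM, against 0.221, 0.239 and 0.0929 RPKM for DKI. The groups did not overlap, and the DKI values rest on 12, 13 and 4 reads against 1319, 2068 and 916 reads in WT. The ratio of the mean levels was 158, and the difference on the log2(RPKM + 1) scale was -4.62. On day 6 the WT libraries held 13.7, 23.2 and 13.9 RPKM, against 0.0962, 0.111 and 0.188 RPKM for DKI, which rest on 4, 6 and 9 reads. The ratio of the means was then 129, and the difference was -3.95. All 6 DKI values were within the range of the untreated libraries, 0 to 0.260 RPKM. These values chose Lta, and no test is given.

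Ltb, which makes the partner of lymphotoxin alpha in the membrane complex, was lower in DKI MDCs on day 3 but was not lost. On day 3 the WT libraries held 30.4, 31.2 and 32.2 RPKM, against 8.43, 11.3 and 7.92 RPKM for DKI. The WT libraries lay close together and all above the DKI libraries. The difference was -1.67 ± 0.159 (SE, n = 3 per group; limma adjusted p = 0.00679), and the call held in all 13 alternative analyses. On day 6 the WT libraries held 31.0, 47.5 and 45.9 RPKM, against 7.66, 28.6 and 2.32 RPKM for DKI. The groups did not overlap, but the DKI libraries differed among themselves more than on day 3, and the difference of -2.14 ± 0.741 was not called (limma adjusted p = 0.120). Without DKI replicate 2, the library at 28.6 RPKM, it was -2.96 and was called (limma adjusted p = 0.0213), and without DKI replicate 3 it was -1.38 and was not (limma adjusted p = 0.217). With all 18 libraries in 1 fit the difference was also called (limma adjusted p = 0.0116).

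That library also held the highest level of the T cell marker Cd3g in the series (8.79 RPKM) and of Cd2 (3.18 RPKM), while Cd3e was at 0.0892 RPKM in it. Its sum over the 8 T cell markers was 13.4 RPKM, where the other DKI libraries of day 6 summed to 0.722 and 0.809 RPKM and the WT libraries to 0.923 to 4.02 RPKM. In the day 3 libraries the same sum was 1.52 to 1.76 RPKM in WT and 0.504 to 3.20 RPKM in DKI. The B cell list of 7 summed to 3.59 to 10.1 RPKM in WT and 1.56 to 7.61 RPKM in DKI on day 3, and the NK cell list of 7 to 4.63 to 13.0 and 1.66 to 4.02 RPKM. Members of the B cell list went opposite ways on day 3, with Fcrla at 3.15 to 9.63 RPKM in WT and 0.294 to 1.03 RPKM in DKI, and Cd79b at 0.260 to 0.337 RPKM in WT and 1.14 to 6.89 RPKM in DKI. Klrk1 made up most of the NK cell sums of WT, at 3.64 to 12.7 RPKM. The part of such cells in the lymphotoxin levels was not tested.

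The balance of both lymphotoxin chains can be given as a ratio. That of Ltb to Lta RPKM was, on day 3, 1.13, 0.784 and 1.56 in WT and 38.2, 47.1 and 85.3 in DKI. On day 6 it was 2.26, 2.05 and 3.29 in WT and 79.6, 257 and 12.3 in DKI. The DKI ratios carry the counting error of the few Lta reads and are a description, since Lta was chosen on these values.

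Summed markers of dendritic cells were lower in DKI MDCs than in WT MDCs, as both lymphotoxin genes were. Within DKI, though, this sum was 13.4 to 26.6 RPKM on day 0 and rose by day 3, while Lta stayed within its untreated range. The 6 dendritic cell markers, with Itgax the highest on day 3, summed to 930 to 1079 RPKM in WT and 54.1 to 334 RPKM in DKI on day 3, and to 934 to 1422 and 173 to 417 RPKM on day 6. The 6 macrophage markers moved the other way, with sums of 473 to 1040 RPKM in WT and 1488 to 4058 RPKM in DKI on day 3, and 389 to 1810 and 1331 to 4343 RPKM on day 6. The 6 monocyte markers summed to 800 to 1192 RPKM in WT and 1468 to 2466 RPKM in DKI on day 3. Their part in the levels of the TNF family genes was not tested.

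Tnfsf14, which makes LIGHT, was higher in DKI MDCs. On day 3 the WT libraries held 2.70, 1.03 and 1.41 RPKM, against 59.8, 18.7 and 44.4 RPKM for DKI. Every DKI library was above every WT library, and also above the untreated monocytes, which held 4.69 to 9.02 RPKM. The mean level was 23.9 times that of WT, and the difference was 3.85 ± 0.449 (limma adjusted p = 0.00985), a call that held in all 13 alternatives. On day 6 the WT libraries held 1.40, 2.18 and 1.07 RPKM, against 34.7, 6.76 and 10.9 RPKM for DKI. The groups again did not overlap, and the difference was 2.57 ± 0.549 (limma adjusted p = 0.0433). With the replicate number as a block the adjusted p was 0.0573 on day 6. The day 6 call was also lost without any 1 of the 3 WT libraries or without DKI replicate 3, with adjusted p between 0.0729 and 0.148, without the filter on low values (0.0875) and with only the libraries whose names carry the later year (0.141).

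The DKI library with the most Tnfsf14 on day 3, replicate 1, also held the most C1qa (1768 RPKM, a macrophage complement gene) and Ly6c2 (775 RPKM, a marker of the starting monocytes) of the day 3 libraries. The DKI libraries of replicates 2 and 3 held 176 and 434 RPKM of C1qa and 49.5 and 73.8 RPKM of Ly6c2. Without replicate 1 the day 3 difference of Tnfsf14 was still called.

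Tnf, the cytokine the family is named for, had a lower level in DKI than in WT in 3 of 3 same-numbered pairs on both days. On day 3 the WT libraries held 23.2, 37.5 and 34.5 RPKM, against 15.2, 25.2 and 13.4 RPKM for DKI. The ranges overlapped, and the difference of -0.81 ± 0.287 was not called (limma adjusted p = 0.139). By day 6 the levels were 24.7, 33.0 and 15.5 RPKM in WT against 11.6, 21.0 and 5.94 RPKM in DKI. The ranges overlapped again (difference -0.97 ± 0.461, limma adjusted p = 0.222), but with the replicate number as a block the difference was called (limma adjusted p = 0.0454).

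The ligands Tnfsf12, Tnfsf13 and Tnfsf13b were not called on either day, although with all 18 libraries in 1 fit the last pair was called on day 6. TWEAK (Tnfsf12) stood at 27.4 ± 1.02 RPKM in WT against 26.9 ± 4.60 RPKM in DKI on day 3, and later at 23.8 ± 6.66 and 25.8 ± 4.28 RPKM (day 6). Its differences were -0.04 ± 0.158 (limma adjusted p = 0.890) and 0.14 ± 0.253 (limma adjusted p = 0.734), and their sign changed between alternatives. APRIL (Tnfsf13) was at 0.900 ± 0.368 RPKM in WT against 2.70 ± 1.30 RPKM in DKI on day 6, groups that did not overlap, with a difference of 0.92 ± 0.332 (limma adjusted p = 0.132, and 0.0394 with all 18 libraries in 1 fit). BAFF (Tnfsf13b) was at 2.30 ± 0.470 RPKM in WT against 0.756 ± 0.228 RPKM in DKI on day 6, also without overlap, with a difference of -0.91 ± 0.227 (limma adjusted p = 0.0608, and 0.0327 with all 18 libraries), and was below the filter on day 3. Tnfsf12 and Tnfsf13 share their place with the read-through gene Tnfsfm13, which was listed at no more than 0.00396 RPKM on average in any group, and with an antisense gene. Whether the counting used strand is not given in the sources used here, so reads of these genes may be split.

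Of the receptors, TNFR2 (Tnfrsf1b) was higher in DKI MDCs. On day 3 the WT libraries held 40.8, 52.4 and 63.6 RPKM, against 105, 118 and 187 RPKM for DKI. The groups did not overlap, and the difference was 1.35 ± 0.278 (limma adjusted p = 0.0401). By day 6 the levels were 78.7, 73.1 and 79.5 RPKM in WT against 120, 188 and 155 RPKM in DKI, with a difference of 0.97 ± 0.201 (limma adjusted p = 0.0410, and 0.0587 with the replicate block). Both calls were close to the threshold. The day 3 call was kept only without DKI replicate 1 among the 6 libraries left out in turn, and the day 6 call was likewise lost in 5 of 6, with adjusted p up to 0.133 and 0.132. Both were also lost without the filter on low values (limma adjusted p = 0.0746 and 0.0628) and with only the libraries whose names carry the later year (0.0763 and 0.146), and the day 6 call with all 18 libraries in 1 fit (0.0951).

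TNFR1 (Tnfrsf1a) and the lymphotoxin beta receptor (Ltbr) were also above WT in every DKI library, without being called. Tnfrsf1a was at 75.8, 54.7 and 70.5 RPKM in WT against 127, 90.5 and 93.4 RPKM in DKI on day 3 (difference 0.62 ± 0.210, limma adjusted p = 0.130). On day 6 it was at 59.3 ± 17.6 and 97.3 ± 11.3 RPKM (difference 0.74 ± 0.257, limma adjusted p = 0.120, and 0.0490 with all 18 libraries, where it was called). Ltbr was at 35.1, 31.7 and 32.4 RPKM in WT against 55.7, 42.4 and 45.3 RPKM in DKI on day 3 (difference 0.51 ± 0.155, limma adjusted p = 0.103), and at 32.1 ± 4.71 and 45.0 ± 10.3 RPKM on day 6 (difference 0.46 ± 0.209, limma adjusted p = 0.202). The receptor of both the lymphotoxin complex and LIGHT was thus measured at 26.7 RPKM or more in all 18 libraries.

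Counted over the 9 genes other than Lta, 8 were fitted on day 3, of which 1 was lower and 2 were higher in DKI. Among the 9740 genes fitted on that day, 4.21% were called lower and 3.21% higher. On day 6 all 9 were fitted, 0 were called lower and 2 higher, where 4.82% and 2.72% of 9842 genes were called. The groups did not overlap for 5 of 8 fitted genes on day 3 and 7 of 9 on day 6, beside 36.3% and 37.2% of all genes fitted. The genes were chosen as relatives of Lta with earlier results known, so these shares describe a few genes and do not set the family apart. The median difference over all genes was -0.11 on day 3 and -0.17 on day 6.

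**Figure D2:**
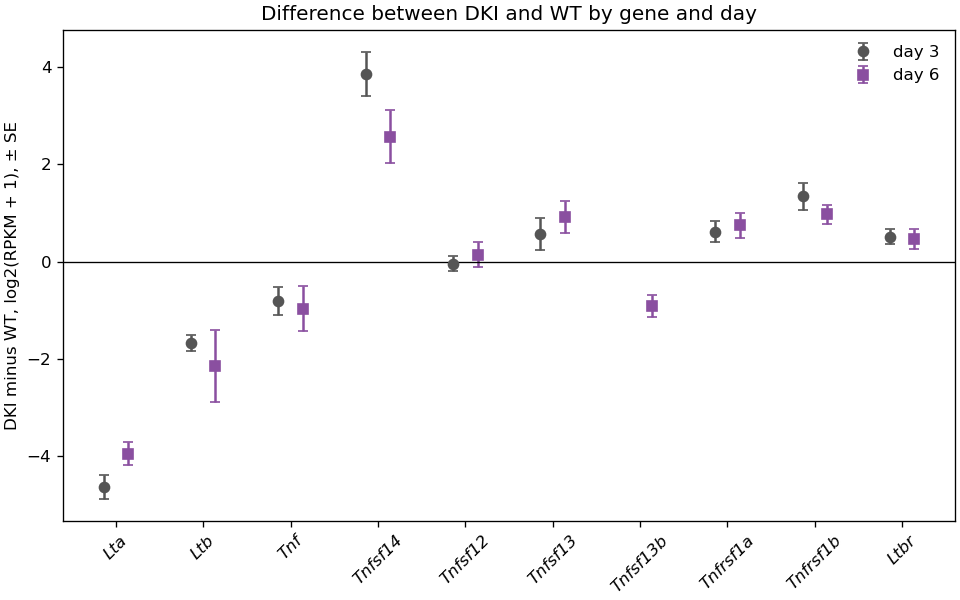
Difference between DKI and WT on the log2(RPKM + 1) scale (y axis) with its standard error from limma, for each gene (x axis) on day 3 (circles) and day 6 (squares), with 3 libraries per group. Lta and Ltb lie below 0 and Tnfsf14 and Tnfrsf1b above it on both days, and Tnfsf13b has no day 3 value because it was below the filter.

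Days 0 and 3 were then compared within each genotype. Day 0 cells were labelled untreated and all day 3 libraries came from cells given GM-CSF, so that GM-CSF and time in culture cannot be told apart. In WT, 8 of the 9 genes other than Lta were fitted and all 8 were called, with 6 lower and 2 higher on day 3. Among the 9938 genes fitted, 22.8% were called lower and 20.3% higher. Ltb rose by 3.83 ± 0.147 (limma adjusted p = 1.31e-05) and Tnfsf12 by 1.41 ± 0.301 (limma adjusted p = 0.00859). Lta itself went from at most 0.189 RPKM to 20.6 RPKM or more, a difference of 4.71 that is a description, since its WT levels entered its choice.

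The 6 genes that fell in WT were 3 ligands and the 3 receptors. Tnf changed by -2.38 ± 0.368, from 189, 95.8 and 253 RPKM on day 0 to the day 3 levels given above. Tnfsf14 changed by -1.57 ± 0.304 and Tnfsf13 by -0.93 ± 0.296. The Tnfsf13 call was lost without day 0 replicate 2 or 3 or without day 3 replicate 1 or 2 (limma adjusted p up to 0.0996). It was also lost without the filter (limma adjusted p = 0.0589), after centring on the library median (0.0524) and with only the later year (0.0964). That makes 7 of 13 alternatives, but the later-year fit and the one without day 3 replicate 1 are the same fit here. Tnfrsf1b changed by -2.25 ± 0.371, Tnfrsf1a by -1.67 ± 0.222 and Ltbr by -0.73 ± 0.135. Their adjusted p values lay between 0.00141 for Tnfrsf1a and 0.0376 for Tnfsf13.

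In DKI, 8 of the 9 genes were fitted, of which 2 were lower, 3 were higher and 3 were not called, beside 21.1% lower and 13.1% higher of 9922 genes. Ltb rose by 2.24 ± 0.274 (limma adjusted p = 0.00289), Tnfsf12 by 1.42 ± 0.307 (0.0149) and Tnfsf14 by 2.21 ± 0.433 (0.0110). Tnf fell by 3.12 ± 0.475 (limma adjusted p = 0.00534) and Tnfrsf1a by 1.08 ± 0.237 (0.0156). Tnfrsf1b (-0.89 ± 0.426, limma adjusted p = 0.143), Ltbr (-0.24 ± 0.176, 0.312) and Tnfsf13 (-0.24 ± 0.230, 0.446) were not called. Without DKI day 0 replicate 2 the calls of Tnfsf12 and Tnfrsf1a were lost (limma adjusted p = 0.0553 and 0.0614). Lta stayed below the filter in DKI on both days. The names of the replicate 1 libraries of days 3 and 6 carry an earlier year than all others, and without these libraries all 5 calls held.

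The difference between genotypes in the change from day 0 to day 3 was tested as an interaction in the 12 libraries of those days. Of 8 genes fitted other than Lta, 1 was called lower and 1 higher, beside 1.7% and 1.2% of 10212 genes. Ltb rose less in DKI, by -1.60 ± 0.305 (limma adjusted p = 0.0203). Tnfsf14 fell in WT and rose in DKI, with a difference of 3.78 ± 0.570 (limma adjusted p = 0.00671). The interaction of Ltb was not called without WT day 0 replicate 2 or replicate 3 (limma adjusted p = 0.0574 and 0.0522), nor without the replicate 1 libraries of day 3, whose names carry an earlier year (0.0708), with a pseudocount of 0.1 (0.104) or with all 18 libraries in 1 fit (0.306), which makes 5 of 19 alternatives, whereas that of Tnfsf14 was called in all 19 alternatives.

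From day 3 to day 6 limma called 0% of 9613 genes in WT and 0% of 9540 genes in DKI, with 722 and 93 genes at an unadjusted p under 0.05, and the genotype effect differed between these days for 0% of 9985 genes, with 89 at an unadjusted p under 0.05. Among the family genes, Tnfrsf1b in WT had the smallest unadjusted p, 0.0152 (difference 0.57 ± 0.176, limma adjusted p = 0.632). Lta in WT differed by -0.74, which is given as a description. Tnfsf14 in DKI differed by -1.35 ± 0.663 (limma adjusted p = 0.999).

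By day 3 the order of levels differed between genotypes. In WT the receptors Tnfrsf1a (67.0 ± 11.0 RPKM) and Tnfrsf1b (52.3 ± 11.4 RPKM) were followed by Ltbr (33.1 ± 1.77), Tnf (31.7 ± 7.51), Ltb (31.3 ± 0.878), Lta (29.1 ± 9.74) and Tnfsf12 (27.4 ± 1.02 RPKM), and the last 3 ligands were at 1.12 to 1.71 RPKM. The ranges of Tnfrsf1a and Tnfrsf1b overlapped, and so did those of each pair of neighbours from Ltbr to Tnfsf12. In DKI, Tnfrsf1b (137 ± 44.3 RPKM), Tnfrsf1a (104 ± 20.4) and Ltbr (47.8 ± 7.01) were followed by Tnfsf14 (41.0 ± 20.8), Tnfsf12 (26.9 ± 4.60), Tnf (17.9 ± 6.36), Ltb (9.20 ± 1.80) and Tnfsf13 (2.07 ± 0.649 RPKM), with the means of Tnfsf13b and Lta below 1 RPKM. There the ranges of neighbours overlapped from Ltbr to Tnf, and Ltb lay below all of these. Tnfsf14 thus ranked 4 of 10 in DKI and 8 of 10 in WT, and Lta 6 of 10 in WT and 10 of 10 in DKI.

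Of the 6 listed genes next to the Ltb-Tnf-Lta block, 5 were fitted on both days, and only Nfkbil1 was called on day 3 and none on day 6. On the Ltb side, Lst1 was at 52.5 ± 27.0 RPKM in WT against 242 ± 168 RPKM in DKI (difference 2.04 ± 0.596, limma adjusted p = 0.0948), Aif1 at 119 ± 21.8 and 150 ± 132 RPKM (-0.00 ± 0.569, 0.998) and Prrc2a at 63.7 ± 11.1 and 54.1 ± 0.0946 RPKM (-0.22 ± 0.168, 0.452). On the Lta side, Nfkbil1 was at 16.1 ± 0.343 RPKM in WT against 9.71 ± 0.807 RPKM in DKI and was called lower (difference -0.67 ± 0.123, limma adjusted p = 0.0289, and 0.0608 with the replicate block). On day 6 its difference was -0.53 ± 0.127 and was not called (limma adjusted p = 0.0540, and 0.0688 with the block). Atp6v1g2 was below the filter at 0.969 and 0.913 RPKM, and Ddx39b was at 77.1 ± 4.63 and 64.1 ± 15.9 RPKM (-0.29 ± 0.217, 0.432).

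**Figure D3:**
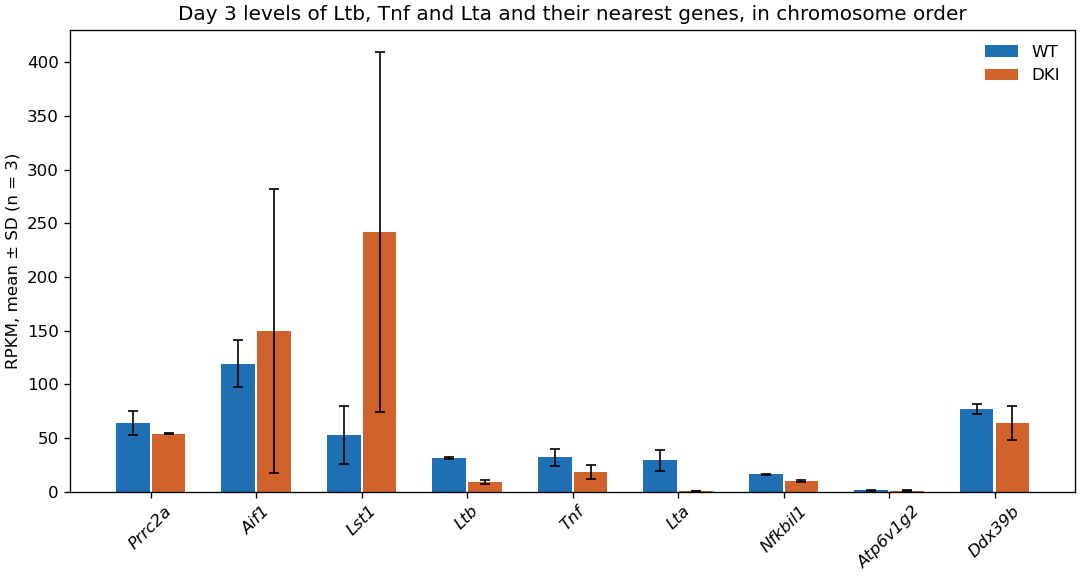
Mean RPKM ± SD (y axis, 3 libraries) on day 3 in WT (blue) and DKI (orange) for Ltb, Tnf and Lta and the 3 listed genes nearest on each side (x axis), in chromosome order and not to scale in distance. Lta is at 29.1 RPKM in WT against 0.184 RPKM in DKI. Lst1 and Aif1 on the other side of Ltb have DKI means above WT, but neither was called. The difference of Aif1 on the log2(RPKM + 1) scale was -0.003.

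Around the pairs Ltbr-Tnfrsf1a and Tnfsf13-Tnfsf12, only Cd68 of the 3 nearest listed genes on each side was called on day 3, and neighbours of the other family genes were not examined. Cd68, a macrophage gene beside Tnfsf13, was higher in DKI at 876 ± 154 RPKM against 310 ± 119 RPKM (difference 1.56 ± 0.344, limma adjusted p = 0.0475, and 0.0622 with the replicate block), and was also called on day 6 (1.80 ± 0.238, 0.0162 by limma). Eif4a1 (-0.30 ± 0.403), Senp3 (-0.07 ± 0.155), Polr2a (-0.20 ± 0.156) and Zbtb4 (-0.04 ± 0.162) in the same stretch were not called, with limma adjusted p of 0.464 or more, and Slc35g3 was below the filter. Beside Tnfrsf1a and Ltbr, Tapbpl (0.28 ± 0.485), Cd9 (-0.45 ± 0.716) and Vwf (0.61 ± 0.645) were not called, with limma adjusted p of 0.583 or more, and Cd27, Tuba3a, Scnn1a and Plekhg6 were below the filter.

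Lta's pattern over the 18 libraries was most like that of 5 genes, by the Pearson correlation of log2(RPKM + 1) with 10416 genes. The libraries form groups, so that these values describe the order of the groups. They were 6430571L13Rik (r = 0.986), Itgae (0.982), which encodes the integrin CD103 of some dendritic cells, Kcp (0.974), Ffar4 (0.973), a fatty acid receptor, and Klrg2 (0.972). On day 3 Itgae was at 40.7 ± 6.12 RPKM in WT against 0.331 ± 0.303 RPKM in DKI, Kcp at 19.9 ± 5.87 and 0.167 ± 0.0682 RPKM, and 6430571L13Rik at 5.69 ± 1.07 and 0.156 ± 0.0903 RPKM. Ffar4 was at 10.5 ± 3.68 and 0.503 ± 0.272 RPKM, and Klrg2 at 8.09 ± 1.0 and 0.830 ± 0.420 RPKM. All 5 were below 1 RPKM on day 0 in both genotypes.

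The other ligands of the TNF family were examined as a list of 11, of which 9 were listed. Among these, 5 on day 3 were fitted, 2 were lower and 0 higher in DKI, beside 4.21% and 3.21% of all genes fitted, with a list median of -0.90 against -0.11 over all genes. Tnfsf4, which encodes OX40 ligand, a costimulator of T cells, was at 16.6, 55.2 and 19.4 RPKM in WT against 1.39, 5.12 and 4.23 RPKM in DKI (difference -2.68 ± 0.541, limma adjusted p = 0.0379). Tnfsf8, which encodes CD30 ligand, was at 27.4, 26.5 and 29.0 RPKM in WT against 9.05, 9.41 and 17.4 RPKM in DKI (difference -1.20 ± 0.251, limma adjusted p = 0.0411, and 0.0530 with the replicate block). In both genes each DKI library was below each WT library.

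On day 6, 6 of the other ligands were fitted, and 3 were lower and 0 higher in DKI, beside 4.82% and 2.72% of all genes, with a list median of -1.27 against -0.17. Tnfsf8 was at 32.3 ± 6.69 RPKM in WT against 12.6 ± 1.94 RPKM in DKI (-1.28 ± 0.206, limma adjusted p = 0.0254). Tnfsf4 was at 33.0 ± 20.9 and 4.13 ± 2.16 RPKM (-2.62 ± 0.559, limma adjusted p = 0.0431, and 0.0756 with the block). Cd70, the ligand of CD27, was at 1.83, 1.16 and 3.26 RPKM in WT against 0.158, 0 and 0.103 RPKM in DKI (-1.45 ± 0.317, limma adjusted p = 0.0456, and 0.0585 with the block). Cd70 passed the filter only through its WT libraries, so it could hardly be called higher in DKI. Tnfsf9, the ligand of 4-1BB, held 9.05 ± 4.12 RPKM in WT and 6.86 ± 2.00 RPKM in DKI on day 3 without being called (-0.29 ± 0.360, limma adjusted p = 0.646). On day 3 Tnfsf10 (TRAIL) was at 0.611 ± 0.207 RPKM in WT against 7.50 ± 11.3 RPKM in DKI (adjusted p = 0.371 by limma), where the DKI mean rests on replicate 1 at 20.6 RPKM, and Tnfsf15 was at 4.55 ± 4.07 and 1.54 ± 0.341 RPKM on day 3 (adjusted p = 0.291 by limma).

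Of 25 other receptors, 24 were listed and 14 were fitted on each day, and the same shares of all genes apply to this list and those that follow. On day 3, 3 were lower and 1 higher, with a list median of -0.47, and on day 6, 2 were lower and 1 higher, with a list median of -0.71. Tnfrsf9, which encodes 4-1BB, the receptor of Tnfsf9, showed the largest difference of the list. It was at 177, 227 and 87.6 RPKM in WT against 16.9, 4.55 and 1.04 RPKM in DKI on day 3 (-4.70 ± 0.790, limma adjusted p = 0.0239). On day 6 it was at 543, 239 and 621 RPKM in WT against 15.7, 15.5 and 43.5 RPKM in DKI (-4.23 ± 0.519, limma adjusted p = 0.0136). No WT library reached as low as any DKI library on either day, and all 6 day 0 libraries were at 0.204 RPKM or less.

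Tnfrsf18 (GITR) was at 20.7 ± 8.56 RPKM in WT against 3.37 ± 1.16 RPKM in DKI on day 3 (-2.27 ± 0.348, limma adjusted p = 0.0188), and was lower on day 6 as well (-2.17 ± 0.362, limma adjusted p = 0.0268, and 0.0514 with the block). Tnfrsf13b, which encodes TACI, a receptor of APRIL and BAFF, was lower on day 3 (22.4 ± 4.16 and 11.9 ± 1.73 RPKM, difference -0.85 ± 0.185, limma adjusted p = 0.0452) and was not called on day 6 (-0.42 ± 0.175, 0.175). Tnfrsf26, another receptor gene of the family, was higher in DKI on day 3 (5.74 ± 2.60 and 30.9 ± 6.32 RPKM, difference 2.31 ± 0.344, limma adjusted p = 0.0175) and was not called on day 6 (2.02 ± 0.501, 0.0599). Tnfrsf21, which encodes death receptor 6, was higher on day 6 (10.8 ± 3.07 and 22.3 ± 2.16 RPKM, difference 1.01 ± 0.223, limma adjusted p = 0.0464, and 0.0661 with the block).

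Tnfrsf14, which encodes HVEM and so receives LIGHT, averaged 11.6 ± 3.73 RPKM in WT on day 3, and the DKI libraries held 75.4, 20.8 and 36.4 RPKM. Each DKI library was above each WT library. The difference of 1.70 ± 0.480 was not called (limma adjusted p = 0.0879) but was called with the replicate number as a block (0.0395). On day 6 the difference was 0.91 ± 0.402 (limma adjusted p = 0.195, and 0.0491 with the block). As with Tnfsf14, DKI replicate 1 held the highest level on both days. Fas was at 14.9 ± 6.57 and 13.8 ± 4.13 RPKM on day 3 (-0.06 ± 0.347, limma adjusted p = 0.933) and at 25.4 ± 9.81 and 10.2 ± 1.81 RPKM on day 6 (-1.19 ± 0.276, 0.0516). Relt was at 20.0 ± 1.85 and 13.1 ± 4.29 RPKM on day 3 (-0.61 ± 0.235, 0.164), and on day 6 its difference of -0.87 ± 0.212 was called only with the block (limma adjusted p = 0.0571, and 0.0343 with the block).

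Among 15 genes that act behind the receptors, all fitted on both days, 2 were lower and 0 higher in DKI on each day, with list medians of -0.17 on day 3 and -0.62 on day 6. Map3k14 encodes NIK, the kinase through which Ltbr and related receptors reach the alternative NF-kappaB pathway. It was at 21.0, 57.3 and 22.2 RPKM in WT against 6.14, 4.89 and 5.42 RPKM in DKI on day 3 (-2.26 ± 0.381, limma adjusted p = 0.0239). On day 6 it was at 35.2, 29.6 and 60.1 RPKM in WT against 5.72, 8.21 and 7.69 RPKM in DKI (-2.32 ± 0.284, limma adjusted p = 0.0136). The DKI libraries were thus below all WT libraries, and below the 8.44 to 23.3 RPKM of the day 0 libraries.

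Traf1, an adaptor of TNFR2, was called on day 6 (72.8 ± 25.4 RPKM in WT against 16.8 ± 1.14 RPKM in DKI, difference -2.00 ± 0.259, limma adjusted p = 0.0158) and not on day 3 (51.7 ± 25.6 and 16.0 ± 6.91 RPKM, -1.59 ± 0.435, 0.0807). Traf4 was lower on day 3 (6.44 ± 2.15 and 0.980 ± 0.446 RPKM, difference -1.90 ± 0.279, limma adjusted p = 0.0170) and on day 6 only with the block (-1.41 ± 0.652, limma adjusted p = 0.211, and 0.0328 with the block). Birc2, which encodes an inhibitor of apoptosis that turns over NIK, was also called on day 6 only with the block (-1.11 ± 0.278, limma adjusted p = 0.0608, and 0.0328 with the block). Tnfaip3 (A20, difference 0.35 ± 0.348), Birc3 (0.32 ± 0.394) and Casp8 (0.30 ± 0.194), the most abundant of the list over all libraries, were not called on day 3, with limma adjusted p of 0.371 or more.

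The list of 9 genes for the release of TNF and the control of its mRNA had 7 fitted genes, of which 1 was higher on day 3 and 0 were called on day 6 (list medians 0.06 and -0.28). Adam17, the protease that sheds TNF and its receptors, was at 50.6, 50.1 and 52.5 RPKM in WT against 111, 85.0 and 90.1 RPKM in DKI on day 3 (0.88 ± 0.158, limma adjusted p = 0.0277, and 0.0579 with the block). On day 6 its ranges overlapped (45.9 ± 10.1 and 64.7 ± 17.8 RPKM, limma adjusted p = 0.298). Zfp36, which encodes tristetraprolin, a protein that destabilises Tnf mRNA, was at 116 ± 57.1 and 163 ± 169 RPKM on day 3 (0.11 ± 0.729, limma adjusted p = 0.939). Zfp36l2 (0.06 ± 0.259) and Furin (-0.49 ± 0.363) were not called either (limma adjusted p = 0.913 and 0.433). Zfp36l1 was called on day 6 only with the block (-0.93 ± 0.414, limma adjusted p = 0.196, and 0.0419 with the block).

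**Figure D4:**
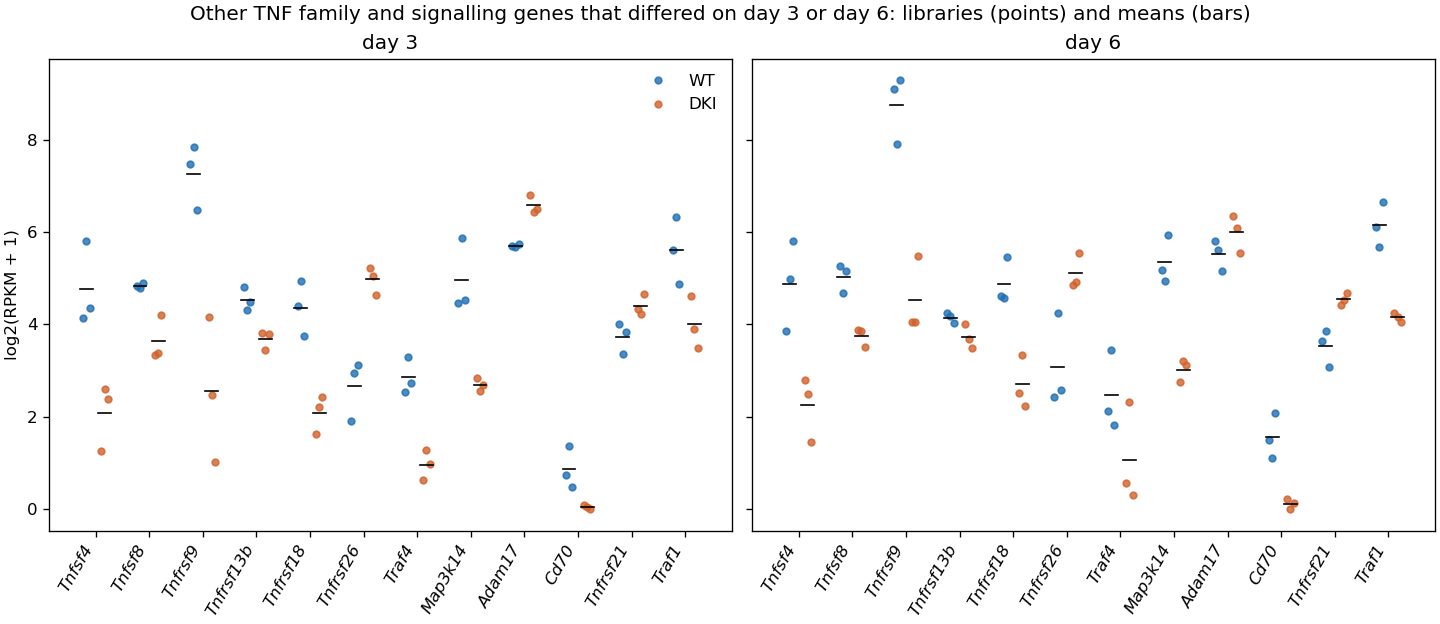
Levels as log2(RPKM + 1) (y axis) of the 12 other TNF family and signalling genes (x axis) that were called on day 3 or day 6, shown on day 3 (left) and day 6 (right), with 1 point per library (WT blue, DKI orange) and a bar at the mean of 3 libraries. Tnfrsf9 has WT values of 87.6 RPKM or more on day 3 and DKI values of 16.9 RPKM or less, and Tnfrsf26, Adam17 and Tnfrsf21 have higher means in DKI.

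Calls of the other family genes were sensitive to single libraries and to the processing. On day 3 the calls of Tnfsf4 and Tnfrsf13b were lost when any 1 of the 6 libraries was left out, those of Tnfsf8 and Adam17 in 5 of 6, of Tnfrsf9 and Map3k14 in 4 of 6, of Tnfrsf18 and Traf4 in 2 of 6 and of Tnfrsf26 in 1 of 6. For day 6 those of Tnfsf4 were lost in 6 of 6, of Tnfrsf21 in 5 of 6, of Tnfsf8 and Tnfrsf18 in 4 of 6, of Cd70 in 4 of the 5 that could be fitted, and of Tnfrsf9, Traf1 and Map3k14 in 2 of 6. Counting the other alternatives too, such as no filter on low values, the replicate block or only the later year, the day 3 calls were lost in 10 of 13 for Tnfrsf13b, in 8 for Tnfsf4, Tnfsf8 and Adam17, in 6 for Map3k14, in 5 for Tnfrsf9, in 3 for Tnfrsf18, in 2 for Traf4 and in 1 for Tnfrsf26. The day 6 calls were lost in 10 of 13 for Tnfsf4, in 9 for Tnfrsf21, in 7 for Tnfrsf18, in 6 for Tnfsf8, in 4 for Traf1, in 3 for Tnfrsf9 and Map3k14, and in 9 of 12 for Cd70.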

How the data were processed

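RNA-seq of 18 libraries, 3 in each of 6 groups by genotype and day, was used. The authors aligned single-end reads to mm10 with Subread, counted reads per RefSeq gene with featureCounts and deposited RPKM values; versions and strandedness are not given in the sources used here. A table of RPKM values holds no counts, and the smallest steps gave whole reads (within 0.1 read) for only 65.3% of 5376 low values, where 20% would do so by chance, so that no count test was run. Depths of 29500000 to 43200000 reads per library were found from 3014 genes with 1 annotated transcript, and counting error is the only error that read numbers and limits cover.

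Differences were fitted on log2(RPKM + 1) in limma 3.58.1 (R 4.3.3, empirical Bayes with trend) over genes above a mean of 2 RPKM in at least 1 compared group, and a call needed a fold change above 1.5 with p, adjusted by Benjamini-Hochberg, under 0.05. The log2 CPM filter of the study was not applied, as CPM could not be had from RPKM. The comparisons were DKI against WT on each day, each genotype between neighbouring days, and their interactions. Descriptions used Python 3.11.15 with pandas 2.3.3 and numpy 2.4.6, and figures matplotlib 3.10.9. The fit was also run on simulated data with independent libraries and with changes only in genes of higher level. Paired libraries and low genes were not covered by it. Levels are RPKM with the SD of 3 libraries. The study states 3 independent experiments.

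Members, gene lists and tests were chosen with earlier results of these data known. Named genes were the 10 members, each gene of the other lists that was called on day 3 or day 6, 3 more of the highest mean level in each list, marker genes, the 3 listed genes on each side of the gene clusters and the 5 most like Lta. Birc2 and Zfp36l1 were named after their values were seen. The other lists were 11 ligands, 25 receptors, 15 adaptors and 9 genes for shedding and mRNA control. Same-numbered libraries deviated together from their group means in DKI against WT on day 0 (r = 0.686 to 0.865), day 3 (0.163 to 0.369) and day 6 (0.338 to 0.413). They also did so between days 3 and 6 in WT (0.125 to 0.680) and DKI (0.320 to 0.743). The numbers thus pair these libraries, which the chosen fit left out and only the replicate block used. Alternatives were another pseudocount, no filter on low values, centring on the library median, all libraries in 1 fit, the replicate number as a block, the libraries with the later year in their names, leaving out each library, and quantile normalization.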

Additional observations from a re-analysis of the deposited data

Results flagged for a closer look

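The change from day 0 to day 3 differed between genotypes for Ltb and Tnfsf14 by the interaction term. For Ltb it was -1.60 on the log2(RPKM + 1) scale, as its level rose in both genotypes but less in DKI. For Tnfsf14 it was 3.78, as its level fell in WT and rose in DKI. Leaving out any of the 12 libraries kept the sign of both values, with ranges of -1.74 to -1.34 for Ltb and 3.43 to 4.25 for Tnfsf14. The call of Ltb was lost in 2 of these 12 and in 5 of 19 alternatives in all (limma adjusted p up to 0.306), and that of Tnfsf14 in 0 of 19.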

How the results depend on the processing

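Across the alternatives, 138 of the counts and descriptions that answer a comparison were labelled unchanged, 13 were weaker, 1 was stronger and 2 moved. Small changes of a count or description were also labelled unchanged, such as the fall from 3 to 2 calls on day 3. The label therefore does not show that each call was kept. Of the values of single genes and lists, 710 were labelled unchanged, 186 were weaker, 10 were stronger and 11 reversed. For single genes the label means that direction and side of the threshold were kept, but the 710 also include counts of calls in lists. With a pseudocount of 0.1 the description of Lta became -6.68 on day 3, where it was -4.62, and -6.18 on day 6, where it was -3.95. The number of family genes other than Lta called on day 6, 2 in the chosen analysis, was 0 without the filter on low values or with only the libraries of the later year, 5 with all 18 libraries in 1 fit (Ltb, Tnfsf13, Tnfsf13b, Tnfsf14 and Tnfrsf1a, without Tnfrsf1b), and 1 with the replicate block, where Tnf was called and Tnfsf14 and Tnfrsf1b were not. Leaving out 1 library gave 0 to 2 on day 6 (0 without any WT library or without DKI replicate 3), 2 to 3 on day 3 and, for the change from day 0 to day 3, 7 to 8 in WT (7 where Tnfsf13 was lost) and 3 to 5 in DKI (3 without day 0 replicate 2). The interaction from day 0 to day 3 had 2 calls, and 1 with a pseudocount of 0.1, with all 18 libraries or with only the later year. Leaving out 1 library gave 1 to 2. Tnfsf12 changed sign: on day 3 it was 0.036 after centring, 0.017 with only the later year and 0.052 after quantile normalization, an alternative chosen after seeing the data. With 1 library left out it ranged between -0.173 and 0.045 on day 3, -0.105 and 0.283 on day 6 and -0.343 and 0.321 in the interaction. The causes were not tested.

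For the changes from day 0 to day 3 the replicate numbers did not pair the libraries (r = -0.208 to 0.00244 in WT and -0.0137 to 0.180 in DKI). With the block, 2007 genes were lower and 1781 higher in WT and 1959 and 1220 in DKI, where 2270 and 2013 and 2097 and 1297 were called without it, and the calls of the family genes were the same. On days 3 and 6 the block changed no call of the family genes other than those given beside their results. Depth limits Lta in untreated and DKI cells, which rests on 14 reads or fewer per library.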
